A study of Mus musculus with 8 samples.

Results

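The Six-family, Eya and Dach genes described here are 9 of the 23420 genes in the table: the homeobox genes Six2, Six4 and Six5, the coactivator genes Eya1, Eya2, Eya3 and Eya4, and the corepressor genes Dach1 and Dach2. They were chosen by symbol as a known regulatory network, with earlier results of these data known. All 9 passed the filter on low values (at least 10 normalized counts, reached by 4 or more libraries). RNA came from the head mesenchyme of mouse embryos of the strain C57BL/6 (genotype wild type, age E12.5), with no treatment other than the dispase digestion that both groups shared. One group was early migrating mesenchyme (EMM) and the other supraorbital mesenchyme (SOM), the tissue above the eye, with 4 libraries each and 4 to 5 embryos pooled per library. Both tissues were cut out by hand after surface ectoderm and brain had been taken off, so each library is a mixture of the cells left in the piece.

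Six-family proteins are homeodomain factors that bind DNA but mostly activate transcription only with a partner. Eya proteins are that partner: they carry no DNA-binding domain, join Six-family-family proteins in the nucleus and are also phosphatases. Dach proteins, relatives of the Ski oncoproteins, act on the same complexes mainly as corepressors, and the network is known from the eye, ear, kidney, muscle and head skeleton.

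Libraries held 12.7 to 22.4 M gene-assigned reads in EMM and 16.8 to 33.7 M in SOM. Values are normalized counts (reads divided by the authors' size factor for the library), given as mean ± SD with n = 4 pools per group. Mesenchyme genes were abundant in all 8 libraries, with Prrx1 between 12005 and 14577 and Twist1 between 6779 and 10003. The labels do not say whether the same embryos gave both tissues, and p-values measure the spread between pools. Fewer expressing cells and less RNA per cell cannot be told apart in such bulk tissue.

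The network did not shift as a block between the tissues. Eya1, Six2, Six5, Eya4 and Eya3 were higher in SOM, Dach1, Six4 and Eya2 were higher in EMM, and Dach2 did not pass the test. Thus 5 of 9 members were higher in SOM, where limma with Benjamini-Hochberg adjustment called 36.0% of the 14249 tested genes, and 3 of 9 in EMM, where it called 36.1%. Together 8 of 9 passed against 72.1% of all tested genes, a share near the background. Libraries of the groups did not overlap for 7 of 9 members against 66.1% of all genes, 4 of them higher in SOM (32.9%) and 3 in EMM (33.2%). Differences of at least 2-fold on the log2(normalized count + 1) scale held for 3 members (background 16.2%), namely Eya1 and Six2 in SOM (5.19%) and Dach1 in EMM (11.0%). The median difference over all tested genes was 0.01. The count higher in SOM was 3 without EMM replicate 1 and also 3 without EMM replicate 4, and the count higher in EMM was 3 in all 18 alternative analyses.

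**Figure D1:**
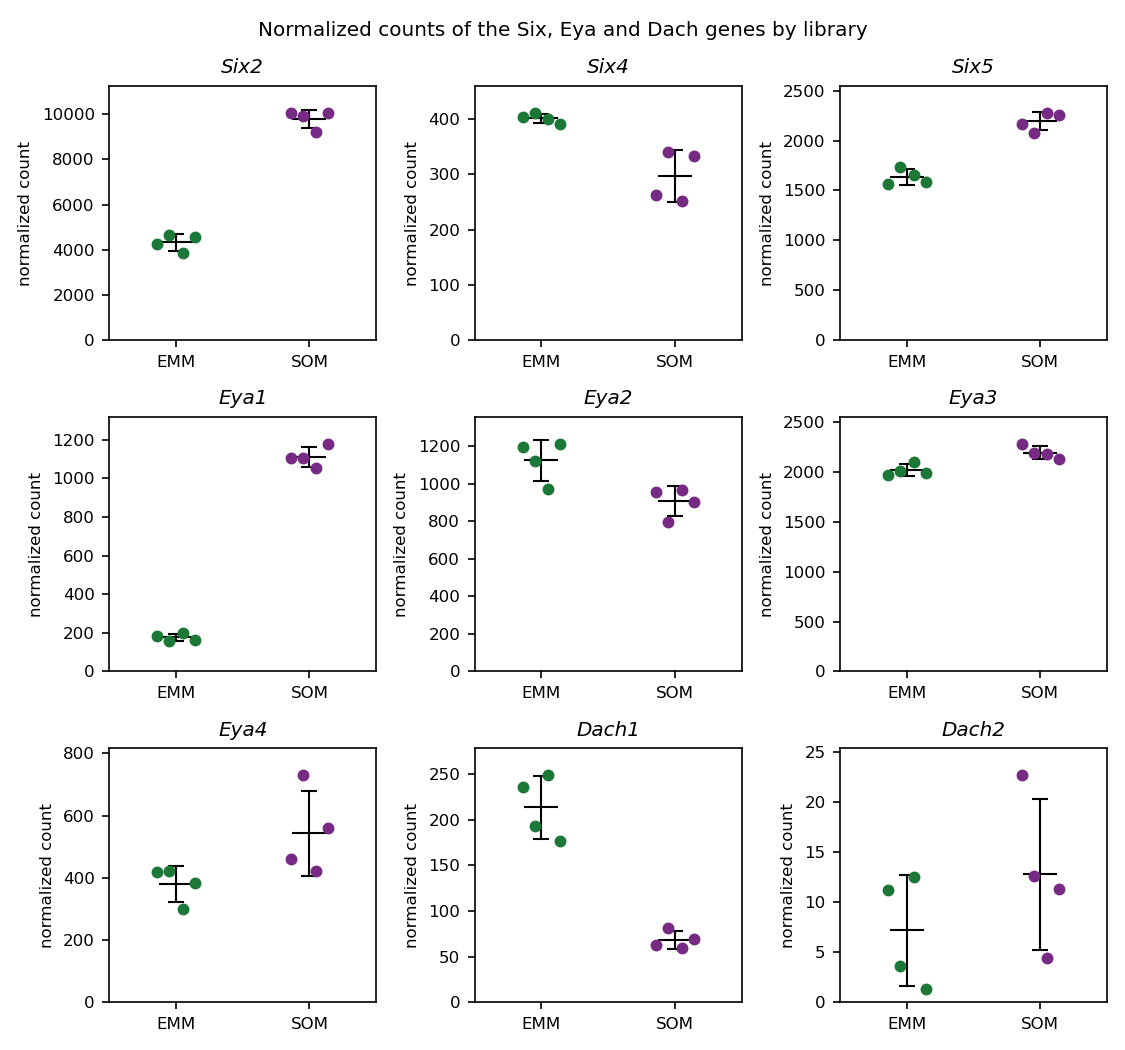
Normalized count (vertical axes, each from 0) of the 9 genes in the 4 EMM and 4 SOM libraries; points are libraries, bars the mean and SD. Eya1, Six2, Six5 and, by a small gap, Eya3 lie wholly higher in SOM. Dach1, Six4 and Eya2 lie wholly higher in EMM, while the Eya4 and Dach2 points of the groups overlap.

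Six2, a homeobox gene that keeps progenitor cells undifferentiated in the kidney and acts in the skull base, was the most abundant member and about doubled from EMM to SOM. Its normalized counts were 4261, 4667, 3857 and 4555 in EMM replicates 1 to 4 and 10043, 9937, 9218 and 10042 in SOM replicates 1 to 4. Every SOM library was therefore above every EMM library by a wide margin. The means were 4335 ± 361 and 9810.1 ± 398, 2.26-fold higher in SOM, with a log2 difference (SOM minus EMM) of 1.18 (SE 0.06, limma adjusted p = 3.95e-11). Of all tested genes, 12.9% had a larger difference in either direction. Six2 lies on chromosome 17 of GRCm38 from 85684277 to 85688274 on the minus strand.

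Six5, a paralog next to the myotonic dystrophy kinase gene Dmpk, was higher in SOM to a smaller degree. Its values ran from 1567 to 1733 in EMM and from 2080 to 2273 in SOM, without overlap. The means were 1635 ± 77.0 and 2192 ± 89.6, a 1.34-fold difference with a log2 difference of 0.42 (SE 0.05, limma adjusted p = 1.89e-06). Six5 lies on chromosome 7 from 19094594 to 19098549 on the plus strand.

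The stretches before the Six2 and Six5 start sites are shown because these are the Six-family genes higher in SOM and their upstream bases touch no GENCODE exon. They come from RefSeq on GRCm38.p6 and run from 250 to 21 bases before the RefSeq start, Six2 at chr17:85688275-85688504 on the minus strand and Six5 at chr7:19094294-19094523 on the plus strand. Capitals mark the GC box GGGCGG and the CCAAT box CCAAT on either strand.
Six2: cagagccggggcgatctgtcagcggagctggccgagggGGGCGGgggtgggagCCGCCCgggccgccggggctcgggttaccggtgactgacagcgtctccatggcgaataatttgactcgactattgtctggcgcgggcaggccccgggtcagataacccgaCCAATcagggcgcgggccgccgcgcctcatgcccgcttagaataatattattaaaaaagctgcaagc
Six5: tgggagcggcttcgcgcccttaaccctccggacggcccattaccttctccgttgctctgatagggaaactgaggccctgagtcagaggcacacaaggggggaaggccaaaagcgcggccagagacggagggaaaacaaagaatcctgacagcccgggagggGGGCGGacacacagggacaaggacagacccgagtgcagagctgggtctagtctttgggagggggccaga
The Six2 window held 2 GC boxes and 1 CCAAT box, and the Six5 window held 1 GC box. Among all 32851 RefSeq windows of this length, 29.8% held a GC box and 32.2% a CCAAT box. GC content was 64.8% for Six2 and 62.2% for Six5, higher than in 83% and 78% of the windows. Both windows are thus GC-rich but carry common elements.

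Six4, which works beside other Six-family genes in muscle precursors and ganglia, went the other way. It stood at 404, 410.3, 400.4 and 390.4 in EMM replicates 1 to 4 and at 262, 341, 252 and 333 in SOM replicates 1 to 4. EMM libraries were nearly level, while the SOM libraries were all lower and fell into a higher and a lower pair. The means were 401 ± 8.27 and 297 ± 46.5, 1.35-fold higher in EMM, with a log2 difference of -0.45 (SE 0.10, limma adjusted p = 0.000704). Six4 lies on chromosome 12 from 73099609 to 73113456 on the minus strand.

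The MEF3 element TCAGGTTTC is the classical binding sequence of Six-family proteins and was searched on both strands of the 300-base RefSeq windows (250 bases before to 50 after a start). Of the 32851 windows, 141 (0.429%) held it, and among the windows of members 1 of those of Six4 did. The site is shown because it is the single MEF3 match there. It has 9 flanking bases on each side, lies at chr12:73113327-73113353 on the minus strand, and has the element in capitals as its reverse complement GAAACCTGA.
Six4: ggcctggggGAAACCTGAtcggccaga
It starts 99 bases before the RefSeq start at 73113245, and the longer annotated transcript runs over it. A match is a description of the letters and not of binding. Of the 9 members, 7 had a RefSeq window. Eya1 and Eya2 had none.

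Eya1, the Eya gene whose loss gives branchial, ear and kidney defects, had the largest difference of all members. It stood at 185, 159, 199 and 164 in EMM replicates 1 to 4. In SOM replicates 1 to 4 it stood at 1106, 1103, 1054 and 1177. The groups lay far apart, and the SOM libraries were within a narrow band. The means were 177 ± 18.4 and 1110.03 ± 50.3, 6.28-fold higher in SOM, with a log2 difference of 2.65 (SE 0.08, limma adjusted p = 1.15e-13). Of all tested genes, 2.39% had a larger difference. Eya1 lies on chromosome 1 from 14168954 to 14310235 on the minus strand, with 581 reads behind the EMM value and 5869 behind the SOM value.

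Eya2, a paralog expressed in placodes, ganglia and muscle precursors, was slightly higher in EMM. Its values were 1197, 1121, 971 and 1209 in EMM replicates 1 to 4. In SOM replicates 1 to 4 they were 957, 797, 968 and 904. The gap between the lowest EMM and the highest SOM library was small, 971 against 968. The means were 1124 ± 109 and 906 ± 78.2, with a log2 difference of -0.31 (SE 0.08, limma adjusted p = 0.00223).

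Eya3, broadly expressed and also studied as a DNA damage phosphatase, differed least. It ran from 1975 to 2103 in EMM and from 2128 to 2279 in SOM. The means were 2018 ± 58.5 and 2195 ± 62.8, 1.09-fold higher in SOM, with a log2 difference of 0.12 (SE 0.05, limma adjusted p = 0.029). The call was lost without EMM replicate 1, 2 or 4 and without SOM replicate 1 or 2, with adjusted p from 0.052 to 0.0965. Of all tested genes, 83.6% had a larger difference.

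Eya4, known for hearing and heart disease, varied between libraries of a group. It stood at 419, 423, 299 and 384 in EMM replicates 1 to 4 and at 461, 730, 421 and 560 in SOM replicates 1 to 4. The groups overlapped, since SOM replicate 3 lay below EMM replicate 2, and SOM replicate 2 was the highest of all. The means were 381 ± 57.6 and 543 ± 138, with a log2 difference of 0.49 (SE 0.18, limma adjusted p = 0.039). Leaving out EMM replicate 1, 3 or 4, or SOM replicate 4, ended the call (adjusted p from 0.0531 to 0.0931). So did limma-voom (adjusted p = 0.0531) and leaving out SOM replicate 4 with EMM replicates 2 and 3 (adjusted p = 0.248). Without SOM replicate 2 the difference was 0.34, and without SOM replicate 3 it was 0.60.

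**Figure D2:**
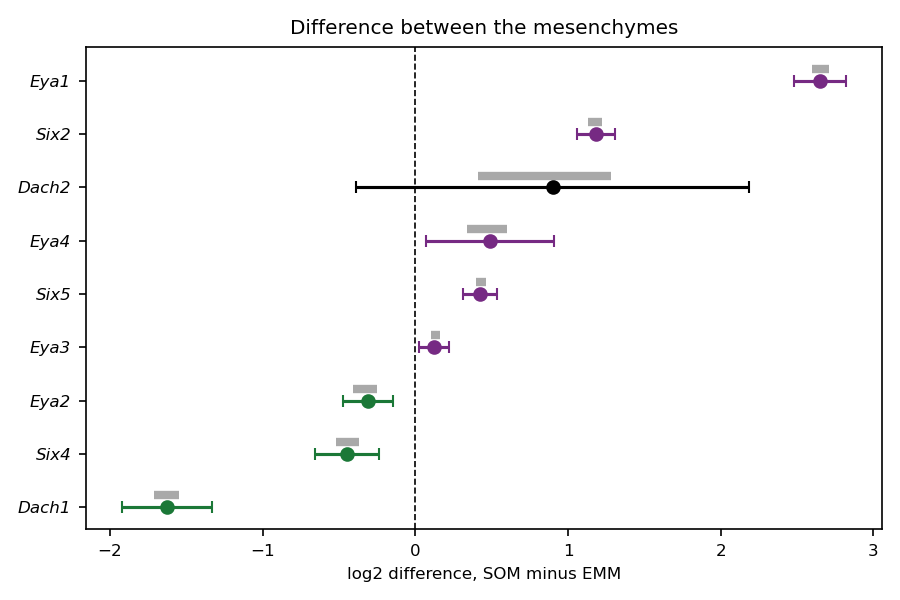
Log2 difference, SOM minus EMM (horizontal axis), of the 9 genes by limma; points are fitted values, thin bars their 95% confidence intervals, colours the direction called (purple SOM, green EMM, black none), and grey bars the range over the alternative analyses. Eya1 is farthest toward SOM at 2.65 and Dach1 farthest toward EMM at -1.62, and only the interval of Dach2 crosses 0.

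Dach1, the more abundant of both Dach genes, was higher in EMM. It stood at 236, 193, 249 and 176 in EMM replicates 1 to 4 and at 63.0, 81.2, 60.0 and 69.5 in SOM replicates 1 to 4. The lowest EMM library held more than double the highest SOM library. The means were 214 ± 34.3 and 68.4 ± 9.39, 3.12-fold higher in EMM, with a log2 difference of -1.62 (SE 0.14, limma adjusted p = 3.03e-08). Of all tested genes, 7.52% had a larger difference. Dach1 lies on chromosome 14 from 97786853 to 98169765 on the minus strand. Its upstream window is shown beside those of Six2 and Six5 as that of the member with the strongest difference toward EMM. It lies at chr14:98169786-98170015 on the minus strand and was searched for the same elements.
Dach1: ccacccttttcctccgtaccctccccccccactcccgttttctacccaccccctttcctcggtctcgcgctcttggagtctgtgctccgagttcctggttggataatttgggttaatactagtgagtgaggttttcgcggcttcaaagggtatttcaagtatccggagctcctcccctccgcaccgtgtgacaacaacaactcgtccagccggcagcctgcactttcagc
No GC box, CCAAT box, TATA box (TATAAA, in 11.8% of windows) or MEF3 element was found in these letters. GC content was 56.5%.

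Dach2, the X-linked paralog, was near the limit of detection. It stood at 11.2, 3.61, 12.54 and 1.35 in EMM replicates 1 to 4 and at 22.7, 12.6, 4.47 and 11.4 in SOM replicates 1 to 4. The groups overlapped widely, and the values rest on 26 reads in EMM and 60 in SOM. The log2 difference of 0.90 had a 95% interval from -0.39 to 2.19 (limma adjusted p = 0.188), so a difference was not detectable at this depth.

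None of the 9 genes shares exonic bases with another gene of the GENCODE M21 annotation on either strand. The annotation used for the deposited counts was not given, so this holds for GENCODE M21 only. In the authors' deposited table, where the sign is EMM over SOM, the same 8 members had an adjusted p-value below 0.05. Their log2 fold changes there included -2.61 for Eya1, -1.18 for Six2 and 1.60 for Dach1.

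Per kilobase of exon, where levels of different genes can be compared, Six2 was the highest of the members described here in both tissues. In EMM the normalized counts per kb were 2046 for Six2, 544 for Six5, 379 for Eya2, 357 for Eya3, 40.5 for Eya4, 37.0 for Six4, 29.2 for Dach1, 22.6 for Eya1 and 0.728 for Dach2. Ranges over the 4 EMM libraries overlapped for the neighbours Eya2 and Eya3, Eya4 and Six4, and Dach1 and Eya1, and for no other neighbours. In SOM the order was Six2 at 4630 per kb, Six5 at 729, Eya3 at 389, Eya2 at 306, Eya1 at 142, Eya4 at 57.6, Six4 at 27.4, Dach1 at 9.35 and Dach2 at 1.29, with no overlap between neighbours. By these means Eya1 stood below Dach1 in EMM, with overlapping ranges, and above Eya4, Six4 and Dach1 in SOM. With the longest transcript as the length of a gene both orders were the same, but levels of several genes moved by over 1.5 times. Eya1 was then 40.5 in EMM and 254 in SOM, Eya4 71.9 and 102.3, Six4 58.9 and 43.6, and Dach2 1.39 and 2.48. Dach1 was 40.9 in EMM and 13.1 in SOM on that length. It was thus nearly level with Eya1 in EMM, where their ranges overlapped.

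**Figure D3:**
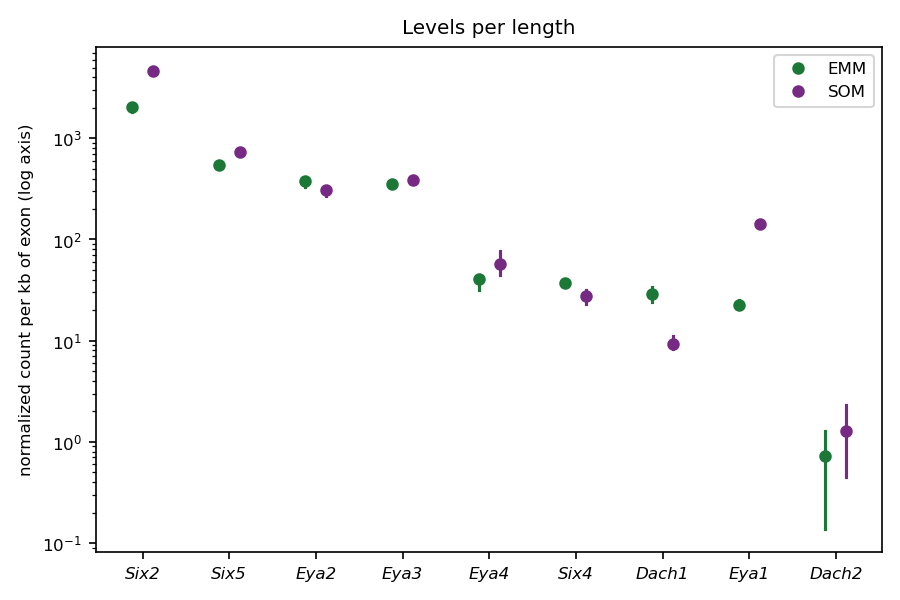
Normalized count per kb of exon (vertical log axis) of the 9 genes, ordered by the EMM mean; points are group means and lines the range over 4 libraries. Six2 is highest in both tissues, at 2046 in EMM and 4630 in SOM. The means of Eya1 and Dach1 change places on this length, though their EMM ranges overlap.

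The make-up of each gene set, a ratio within a library that does not depend on library scaling, also differed between the tissues. Of the per-length total of the 3 Six-family genes, Six2 made up 75.6% to 79.3% in EMM libraries and 84.8% to 86.6% in SOM libraries. Six5 made up 20.8% ± 1.5 of that total in EMM and 13.6% ± 0.856 in SOM, although its own level was higher in SOM. Six4 made up 1.41% ± 0.0961 and 0.507% ± 0.0711, or 2.23% and 0.805% with longest transcripts. These are descriptions with no test.

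Among the 4 Eya genes, the share of Eya1 was 2.55% to 3.36% in EMM and 15.1% to 16.9% in SOM. Eya2 held 43.3% to 49.7% in EMM and 30.7% to 36.6% in SOM, so that its share was lower where that of Eya1 was higher. Eya3 held 44.8% ± 3.07 and 43.5% ± 0.924, with overlapping libraries. Eya4 held 5.05% ± 0.634 and 6.46% ± 1.74, also overlapping. The summed Eya level per kb was 757 to 822 in EMM libraries and 876 to 917 in SOM libraries, a small step beside that of Eya1.

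The summed level per kb of Six2, Six4 and Six5 was 2409 to 2817 in EMM and 5129 to 5520 in SOM, and the summed Dach level 24.2 to 35.3 and 8.65 to 12.4. The ratio of Eya to Dach totals was therefore 27.4 ± 5.51 in EMM and 85.5 ± 13.3 in SOM, without overlap. Eya1 and Dach1 had the largest differences of the members toward SOM (2.65) and EMM (-1.62). A gap in the ratio of this pair follows from those differences and is no separate result. The per-length ratio of Eya1 to Dach1 was 0.734 to 0.873 in EMM libraries and 12.7 to 16.5 in SOM libraries. Dach1 transcripts were thus the more abundant of the pair in all 4 EMM libraries and Eya1 transcripts in all 4 SOM libraries on the exon length used. With longest transcripts the EMM order of the pair held in 3 of 4 libraries.

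**Figure D4:**
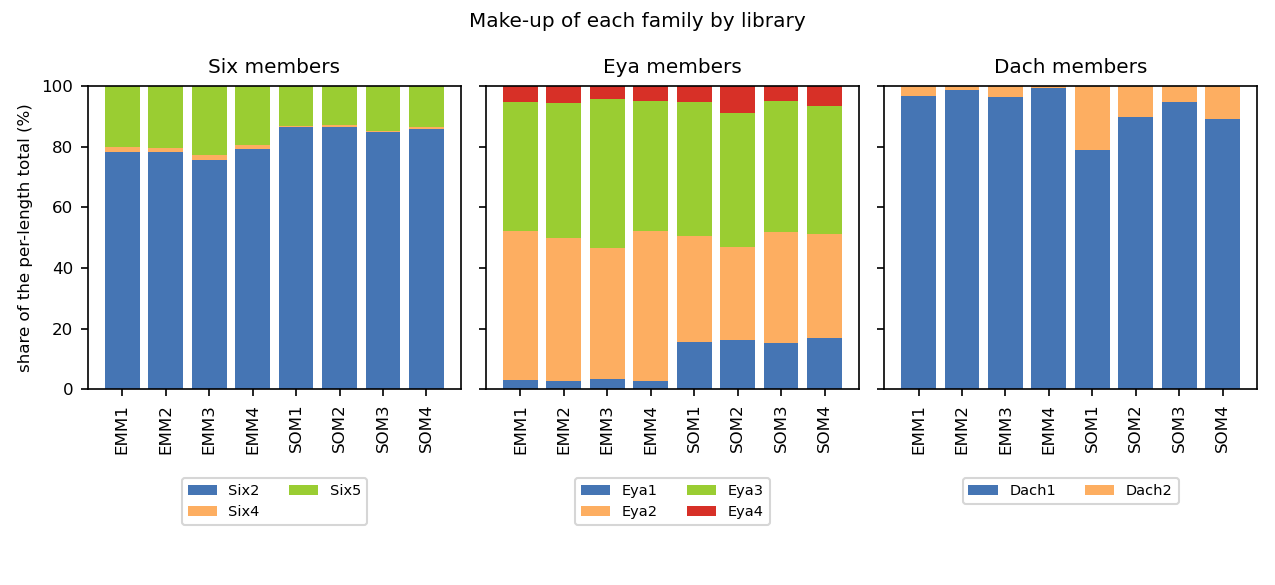
Share of each gene in the per-length total of the 3 Six-family, 4 Eya and 2 Dach genes (vertical axes, %) in each of the 8 libraries. The Eya1 share is at most 3.36% in EMM libraries and at least 15.1% in SOM libraries, and Six2 holds more of the Six-family total in SOM.

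Listed partner genes of Six-family proteins were mostly higher in SOM. The list was chosen with earlier results of these data known, so its counts are only a description. Of 10 cofactor genes, 7 were higher in SOM (background 36.0%) and 1 in EMM (36.1%), while 2 missed the threshold. Their median difference was 0.47 against 0.01 for all tested genes. Sobp, a zinc finger cofactor of Six-family proteins, stood at 387 ± 15.0 in EMM and 740.1 ± 23.0 in SOM, with a log2 difference of 0.93. Pa2g4, whose protein binds the ErbB3 receptor, differed by 0.74. Groucho corepressors that bind Six-family proteins split, since Tle3 (0.64), Tle4 (1.19) and Tle2 (0.60) were higher in SOM and Tle1, at 1130 ± 106 in EMM and 666 ± 57.5 in SOM, was higher in EMM (-0.76). The limma adjusted p was at most 4e-07 for these 6 genes, of which Tle4 and Tle2 were chosen after their values were seen. The smallest difference among the 7 was that of Aes (0.12, limma adjusted p = 0.0478), whose groups overlapped. The count of cofactor genes higher in EMM was 3 without SOM replicate 2 and 2 without SOM replicate 4. For SOM the 7 became 6 with no filter, with the replicate block and without any 1 of EMM replicates 1 to 3 or SOM replicates 1 to 3.

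Of 7 corepressor genes that act with Dach and Ski proteins, SOM had the higher level for 3 (background 36.0%) and EMM for 3 (36.1%), and Ncor1 missed the threshold. Both counts lie near the background. The median was -0.04. The relatives of the Dach genes, Skil (-1.17, limma adjusted p = 1.99e-05) and Ski (-0.22, limma adjusted p = 0.000232), were higher in EMM like Dach1. Skil stood at 1387 ± 32.4 in EMM and 628 ± 146 in SOM. The deacetylase genes Hdac2 (0.47) and Hdac3 (0.39) and the corepressor scaffold gene Sin3a (0.28) were higher in SOM, each with a limma adjusted p of at most 3.63e-05. Hdac1 (-0.11, limma adjusted p = 0.0407) was the third gene higher in EMM. That call was lost under upper quartile scaling (adjusted p = 0.147), in the edgeR and voom fits, and on leaving out EMM replicate 2, 3 or 4, or SOM replicate 1, 2 or 4.

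Pax genes often stand above Six-family and Eya genes in the network. Of 7, only Pax1 and Pax3 passed the low-value filter, and both were higher in SOM (background 36.0%). With 2 tested genes nothing is read from this count. Pax6, an eye and neural gene under the filter, ran the other way without overlap, from 5.39 to 21.7 in EMM and from 0 to 2.8 in SOM, and with no filter 1 Pax gene was higher in EMM. Pax1, a gene of sclerotome and pharyngeal pouches, stood at 322 ± 56.8 in EMM and 1595 ± 225 in SOM (2.31, limma adjusted p = 1.14e-07). Pax3, a neural crest and muscle precursor gene, was between 27.6 and 34.3 in EMM libraries and at 54.1, 200.8, 63.8 and 93.5 in SOM replicates 1 to 4 (1.53, limma adjusted p = 0.00261). SOM replicate 2 was thus the highest library for both Pax3 and Eya4. Leaving out SOM replicate 4 with EMM replicates 2 and 3, the Pax3 call was lost (adjusted p = 0.0904).

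Of 11 genes known as targets of Six-family proteins in other tissues, 8 were tested. SOM had the higher level for 3 (background 36.0%) and EMM for 4 (36.1%), and Gdnf missed the threshold. With so few genes nothing is read from these counts. The median was -0.33. Ccnd1, a G1 cyclin gene, stood at 2310 ± 156 in EMM and 5918 ± 338 in SOM (1.36), and Ccna1 (1.29) and Mycn (0.46) were also higher in SOM. Ccna1 was low, at 10.9 ± 4.15 in EMM and 26.9 ± 4.08 in SOM, and differed by 1.03 with a pseudocount of 5. With a filter at 50 Ccna1 left the test, and 2 targets were higher in SOM. Ezr, the gene of the membrane-to-actin linker ezrin, stood at 2208 ± 115 in EMM and 697 ± 45.5 in SOM (-1.66). Wnt4 (-1.20) and the zinc finger gene Sall1 (-2.47, from 21.6 ± 8.21 in EMM to 3.62 ± 3.15 in SOM) were higher in EMM as well. The limma adjusted p was at most 0.000695 for these 6 genes. Sall1 passed the low-value filter through EMM alone, with SOM replicates 2 and 3 under the level of 3 reads. Leaving out any EMM library removed it from the test and left 3 targets higher in EMM, and with a pseudocount of 5 its difference was -1.65. The muscle targets Myog and Myod1 were under the filter, with Myod1 at 0 in all EMM libraries.

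**Figure D5:**
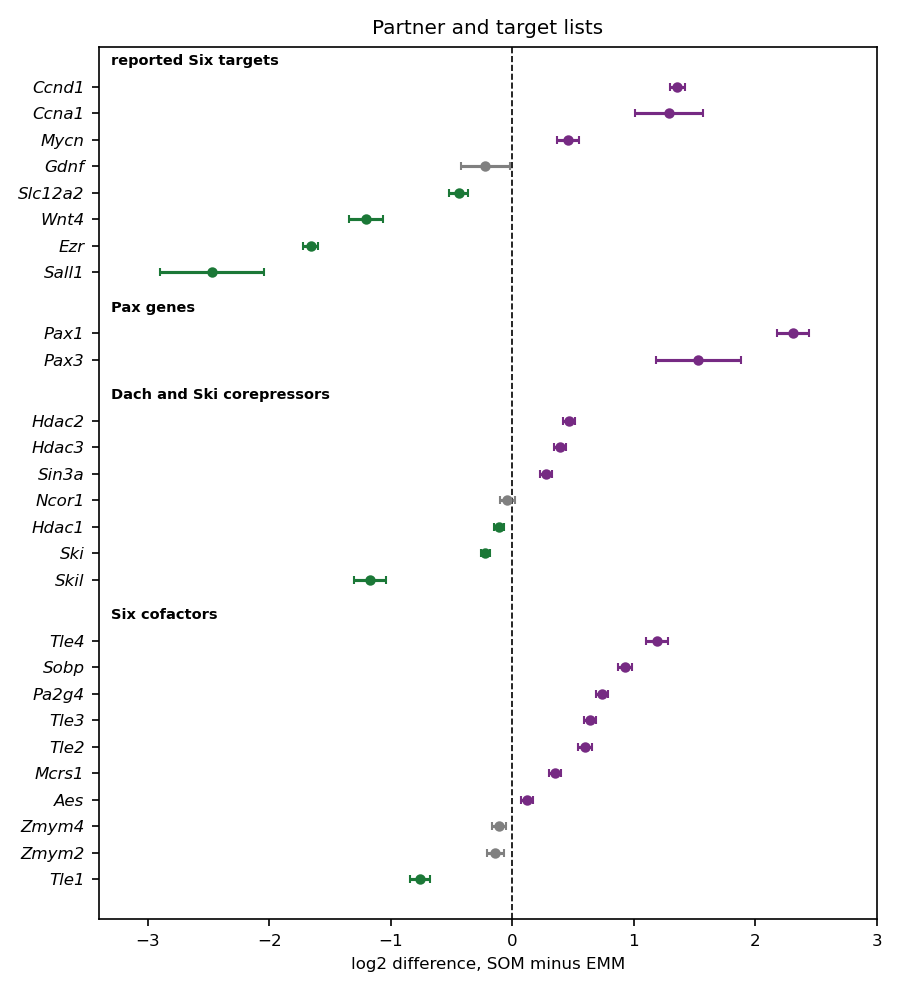
Log2 difference, SOM minus EMM (horizontal axis), with its standard error, for the tested genes of 4 lists; purple points were higher in SOM, green in EMM and grey did not pass. Cofactor genes lie mostly to the right, from -0.76 for Tle1 to 1.19 for Tle4, and reported targets lie on both sides.

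Other cell types that use these genes left differing traces, and their part in the differences was not tested. The marker counts are read against the 36.0% of all tested genes that were higher in SOM and the 36.1% higher in EMM. Skeletal muscle markers summed to 499 to 696 in EMM libraries and 186 to 239 in SOM libraries, with 6 of 8 tested higher in EMM. Myh8, a myosin heavy chain gene, alone held 249 to 504 of that sum in EMM and 27.7 to 56.7 in SOM. Of the defining genes, Myf5 and Myf6 were at 0 in all 8 libraries, Pax7 was at or under 1.05, Myog stood at 1.02 or less in EMM and 3.78 to 13.4 in SOM, and Myod1 at 0 in EMM and at most 1.91 in SOM. Surface ectoderm markers summed to 4247 to 4634 in EMM and 1632 to 2140 in SOM, mostly from Cdh3, with 3 of 11 tested higher in EMM and none in SOM. The basal keratin Krt5 ran from 3.07 to 192 within EMM and from 43.4 to 139.6 within SOM. Neural markers summed to 8084 to 9493 in EMM and 4959 to 5135 in SOM, with 3 of 6 tested higher in EMM and 2 in SOM. Nes alone held 7199 to 8738 of that sum in EMM and 2396 to 2612.5 in SOM. Tubb3 (567 to 840 in EMM, 1418 to 1555 in SOM) and Stmn2 (86.9 to 179 and 955 to 1152) were the genes higher in SOM. The sum thus follows Nes and not these genes. Lens and eye markers summed to 757 to 831 in EMM and 425 to 555 in SOM, with 3 of 6 higher in each tissue. Cryab alone held 457 to 547 of that sum in EMM and 91.0 to 131 in SOM. Crybb1 and Mitf were also higher in EMM, and Tyr, Dct and Pitx3 were higher in SOM. Foxe3 and Cryba1 were at 0 in all 8 libraries. Neural crest glia markers went the other way, at 221 to 267 in EMM and 1123 to 1281 in SOM, with 6 of 7 higher in SOM and Foxd3 at 0 in every EMM library.

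The genes whose levels over the 8 libraries were most like those of the member of each set with the highest mean normalized count are given as a description. That count is not corrected for length, and per kb Eya2 stood above Eya3 in EMM. All were picked from 14249 tested genes, and the 8 libraries share the difference between the tissues. For Six2 they were Fez1, Irx5 and Capn6, with Pearson r from 0.9971 to 0.9978. For Eya3 they were Phf11c, Ninl and Qrsl1, with r from 0.971 to 0.9751. For Dach1 they were Pard3b, Flrt2 and Baz2b, with r from 0.9957 to 0.9968. Once the group means were taken off, different genes led for Six2 (Ell3, Gfra1 and Hap1, r at least 0.9565) and Dach1 (E130309F12Rik, Plag1 and Ercc6, r at least 0.9658), while Ninl again stood among the 3 for Eya3, beside Uckl1 and Wbp1 (r at least 0.9612).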

How the data were processed

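Reads were handled with bcl2fastq, STAR and DESeq2 (no versions) on mm10, per the submitters' processing notes. For annotation, counter and strand setting no entry was given in the sources used here. In the 1 table the authors deposited, library columns hold a signal per gene, the normalized count, per the file headers and the values. Their log2 fold change, Wald score, p-value and adjusted p-value stand beside it, per the file headers. In every library 100% of values were whole multiples of 1 read within 1 ppm, so reads were recovered by division for the count tests (edgeR 4.0.16, DESeq2 1.42.0, limma-voom). 3 reads came to 1.91 to 5.42 normalized counts.

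Genes with at least 10 in at least 4 libraries were fitted as log2(normalized count + 1) with limma 3.58.1 in R 4.3.3 (trend, robust, 8 libraries, no covariate), which understates low genes, and called at an adjusted p of 0.05 over all tested genes. Replicates differed by more than counting noise (chi-square per degree of freedom 3.72 to 19.0). Members and lists were chosen with earlier results of these data known. Named were all members, up to 3 genes per direction and list by adjusted p, and the 3 most alike genes of the member of each set with the highest mean normalized count. Other genes were named after their values were seen. Lengths and positions came from GENCODE M21. Mymk was not analysed here, and 2 genes of the partner and target lists are not reported here and were left out of the counts.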

Additional observations from a re-analysis of the deposited data

Results flagged for a closer look

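In groups of 4 libraries, the highest or lowest value was checked for a gap to its neighbour too large for the group's range (Dixon's 95% critical value for 4 values, which chance passes in about 1 in 20 groups). Of 72 groups checked, over the members, their shares and the named partner and target genes, 2 passed. Six2 in SOM replicate 3 stood at 9218, while the other SOM libraries lay between 9937 and 10043. Skil in SOM replicate 4 stood at 845, while the other SOM libraries lay between 535 and 574.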

How the results depend on the processing

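The calls and directions of Six2, Six4, Six5, Eya1, Eya2 and Dach1 were the same in all 18 alternatives each, with log2 differences of 1.13 to 1.22, -0.52 to -0.37, 0.40 to 0.46, 2.60 to 2.71, -0.41 to -0.25 and -1.71 to -1.55. Dach2 passed in none of 16 (0.41 to 1.28) and gave no value with a filter at 50 or without SOM replicate 4 and EMM replicates 2 and 3, where it missed the filter. Calls lost with libraries left out were those of Eya3 (0.10 to 0.16) and Eya4 (0.34 to 0.60), so the count of members higher in SOM ran from 3 to 5. Eya4 was 0.53 with limma-voom and 0.38 without SOM replicate 4 and EMM replicates 2 and 3, both not past the threshold. In that last setting 2 cofactor genes were higher in EMM and 1 Pax gene higher in SOM. On recovered reads, edgeR's quasi-likelihood test called 5262 genes higher in SOM and 5088 in EMM, against 5129 and 5149. With no filter, 5 reported targets were higher in SOM. With 1 library left out, 1 to 3 cofactor genes were higher in EMM, the cause of which was not tested. With the replicate number as a block that count was 2, and no member's call changed (5 higher in SOM, 3 in EMM). Same-numbered libraries did not deviate together, with correlations from -0.02 to 0.13. With longest transcripts, the Eya1 share was 4.24% in EMM and 22.1% in SOM. Alternatives for the lists were added after seeing the data. Depth limits Dach2, with 26 reads in EMM and 60 in SOM.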
